A study of Mus musculus with 14 samples.

Results

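The 34 genes described here are the glycolysis and hypoxia response genes: glucose and lactate transporters, the enzymes of glycolysis, the core of the hypoxia-inducible factor (HIF) pathway and its commonly used targets. They were chosen by symbol, and 33 of the 34 have a row among the 12924 genes of the deposited tables; Gapdh, a glycolytic dehydrogenase gene, was not analysed here. RNA was sequenced from flank tumors of Lewis lung carcinoma (LLC), a mouse lung carcinoma line, taken on day 14 after implantation from p110g-/- mice and from wild-type (WT) mice. The libraries came from CD11b+Gr1- cells sorted from tumors, called tumor-associated macrophages (TAM) here (4 from p110g-/- and 4 from WT mice), and from 30 mg pieces of whole tumor (3 from p110g-/- and 3 from WT mice). All 14 libraries are labelled C57BL/6; the sources used here give no age or sex for the animals. The p110g-/- mice carry a targeted Pik3cg, the gene of the PI3K gamma catalytic subunit, in the host and not in the tumor line, and the same LLC line was inoculated into both genotypes. Whether the libraries came from separate animals is not stated, so a p-value reflects only the spread from library to library, part of which may be technical.

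Glycolysis turns glucose into pyruvate and is the fuel route that cells fall back on when oxygen is scarce. Prolyl hydroxylases mark HIF alpha subunits for destruction while oxygen is present. When it is not, HIF accumulates, binds short DNA motifs near its targets and raises transporters, glycolytic enzymes, mitophagy receptors and its own hydroxylases. In tumor macrophages this program accompanies residence in poorly perfused areas, and PI3K signalling is one of several inputs to HIF and to glucose use.

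The values are normalized counts, that is, whole numbers that, as read from the values, were scaled by 1 factor per library. Library totals were 33248294 to 38153438 in TAM and 25883561 to 27586429 in whole tumors. Pik3cg, the targeted gene, had 2203, 2211, 1210 and 1401 normalized counts in p110g-/- TAM and 3745, 4477, 3070 and 2748 in WT TAM. In whole tumors it had 242, 279 and 417 in p110g-/- and 487, 616 and 527 in WT, so every p110g-/- library lay below every WT library of its table. Which part of the gene was removed is not stated in the labels. The summed count of 10 macrophage markers was 304365 to 412593 in p110g-/- TAM and 328680 to 418887 in WT TAM, against 48261 to 71010 in p110g-/- tumors and 45929 to 63782 in WT tumors, and none of the markers was at 0. The 8 fibroblast markers summed to 706, 8694, 41500 and 30272 in p110g-/- TAM libraries 1 to 4 and to 2569, 26114, 47776 and 53347 in WT TAM. The mitochondrial share of normalized counts was 2.73%, 3.21%, 9.01% and 14.4% in p110g-/- TAM and 2.51%, 3.06%, 7.70% and 9.59% in WT TAM, so the TAM libraries differed by number within each genotype.

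The window from 250 bases before to 50 bases after a RefSeq transcription start (build GRCm38.p6) was available for 31 of the 33 genes, as 47 windows. It was searched on both strands for ACGTG and GCGTG, the core letters of the hypoxia response element, and a CACGTG counts once per strand because it reads ACGTG on both. At least 1 match stood in 80.9% of the genes' windows, beside 60.5% of the windows of all genes in the deposited tables and 43.8% of all RefSeq windows. Counted by gene, 29 of the 31 had a match in at least 1 window (93.5%), beside 66.5% of the 10238 genes of the deposited tables that have a window and 46.7% of all RefSeq genes. The 31 genes have more windows per gene (47 windows, against 13100 for the 10238), which favours them in a count by gene. Gpi1 and Tpi1 had none in these windows. The 5 windows below are shown with the matches in capitals, each written 5′ to 3′ on the gene's strand. Pfkfb3 and Ddit4 are the genes that changed between genotypes in whole tumors, Ankrd37 and Bnip3 are 2 of the HIF targets that stood high in a single WT TAM library, and Ldha has the highest level per kilobase in whole tumors.
Pfkfb3 chr2:11502041-11502340 minus strand: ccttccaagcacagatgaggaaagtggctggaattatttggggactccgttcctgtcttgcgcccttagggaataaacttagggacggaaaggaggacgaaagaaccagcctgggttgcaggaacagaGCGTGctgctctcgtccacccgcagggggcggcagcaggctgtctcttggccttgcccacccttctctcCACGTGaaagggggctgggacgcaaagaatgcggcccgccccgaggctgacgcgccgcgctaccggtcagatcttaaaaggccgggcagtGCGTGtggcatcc
Ddit4 chr10:59951721-59952020 minus strand: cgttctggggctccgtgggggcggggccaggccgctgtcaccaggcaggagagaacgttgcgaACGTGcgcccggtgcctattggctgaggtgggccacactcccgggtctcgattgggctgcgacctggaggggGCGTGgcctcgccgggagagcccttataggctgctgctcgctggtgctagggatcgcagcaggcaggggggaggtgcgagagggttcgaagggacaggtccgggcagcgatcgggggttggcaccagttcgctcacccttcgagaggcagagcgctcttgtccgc
Ankrd37 chr8:45999801-46000100 minus strand: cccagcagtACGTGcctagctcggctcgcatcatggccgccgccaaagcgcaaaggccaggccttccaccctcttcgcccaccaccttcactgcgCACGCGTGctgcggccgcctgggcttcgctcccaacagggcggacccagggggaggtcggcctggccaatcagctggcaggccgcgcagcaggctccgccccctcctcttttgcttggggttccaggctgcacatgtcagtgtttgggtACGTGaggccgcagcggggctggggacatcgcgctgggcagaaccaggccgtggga
Bnip3 chr7:138909457-138909756 minus strand: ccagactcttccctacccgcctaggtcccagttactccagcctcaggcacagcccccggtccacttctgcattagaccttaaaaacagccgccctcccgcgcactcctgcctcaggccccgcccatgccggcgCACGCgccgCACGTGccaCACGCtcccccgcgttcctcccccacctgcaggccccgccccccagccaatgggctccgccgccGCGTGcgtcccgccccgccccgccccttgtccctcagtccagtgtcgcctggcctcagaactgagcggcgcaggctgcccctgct
Ldha chr7:46845554-46845853 plus strand: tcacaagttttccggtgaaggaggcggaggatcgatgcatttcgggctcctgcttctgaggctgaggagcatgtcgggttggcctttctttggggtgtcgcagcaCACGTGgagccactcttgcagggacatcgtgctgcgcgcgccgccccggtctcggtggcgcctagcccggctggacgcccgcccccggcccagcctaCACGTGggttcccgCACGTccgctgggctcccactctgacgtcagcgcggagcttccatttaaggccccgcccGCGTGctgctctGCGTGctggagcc
These windows hold 4 matches for Pfkfb3, 2 for Ddit4, 4 for Ankrd37, 5 for Bnip3 and 7 for Ldha. Pfkfb3 and Ldha each have another window, and the one with more matches is shown: the other holds 1 match for Pfkfb3 (chr2:11553880-11554179, minus strand) and 2 for Ldha (chr7:46846832-46847131, plus strand). A match describes the letters of the window and does not show that HIF binds there.

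In sorted TAM, no glycolysis or hypoxia response gene passed the test between p110g-/- and WT. The test was limma on log2(normalized count + 1) over the genes with 10 or more normalized counts in 4 or more libraries, with Benjamini-Hochberg adjustment and a threshold of 0.05, and all 33 genes were tested. Of 12475 genes tested, 14 were called (0.112%), 9 of them higher (0.0721%) and 5 of them lower (0.0401%) in the knockout, while 732 fell below 0.05 before adjustment. Of the 33 genes, 1 fell below 0.05 before adjustment. With the replicate number as a block, 312 genes were called (2.50%) and again none of the 33, the smallest block-adjusted p among them being 0.144, for Egln3. The log2 fold changes of the 33 genes, p110g-/- over WT, ran between −0.36 and 0.49 with a median of 0.06, beside a median of −0.01 over all genes tested, and 22 of the 33 were positive against 46.8% of all genes. The groups of libraries overlapped for every one of the 33 genes, beside 4.30% of all genes without overlap. In such bulk samples, fewer cells of a type and less RNA per cell cannot be told apart.

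**Figure D1:**
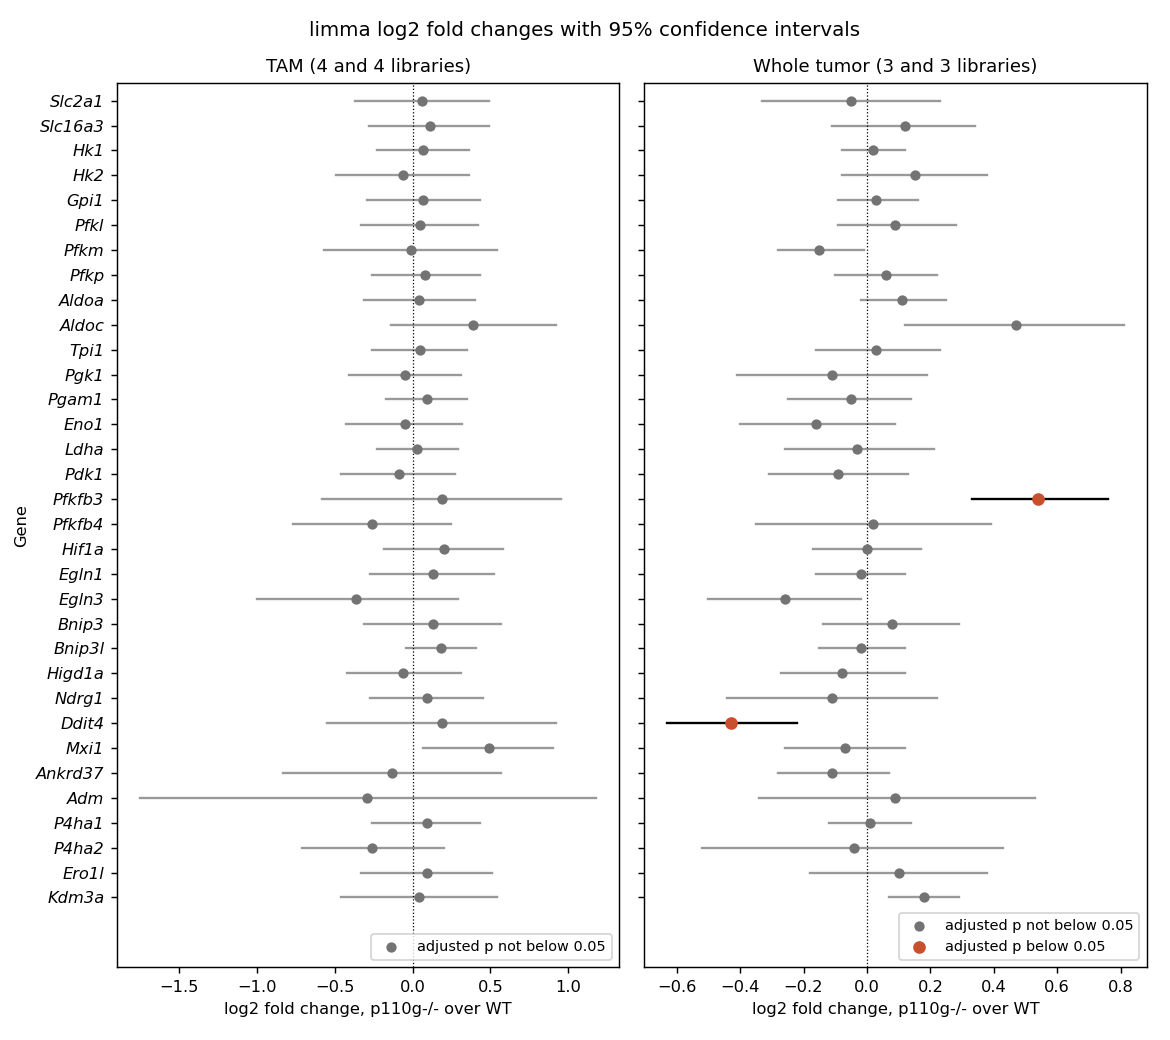
Log2 fold changes of the 33 genes, p110g-/- over WT, with 95% confidence intervals from limma, for TAM at the left and whole tumors at the right; orange points passed an adjusted p of 0.05. In TAM no gene passed, and in whole tumors Pfkfb3 lay at 0.54 and Ddit4 at −0.43.

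Mxi1 (gene ID 17859), a MYC antagonist gene induced by HIF, had the largest difference in TAM. It held 3259, 3221, 4256 and 4046 normalized counts in p110g-/- TAM 1 to 4 and 3691, 2515, 2463 and 2056 in WT TAM 1 to 4. The 4 p110g-/- libraries stood above WT libraries 2, 3 and 4, and WT 1 stood above the first 2 p110g-/- libraries. The log2 fold change was 0.49 (SE 0.18, 95% confidence interval 0.07 to 0.90, limma adjusted p = 0.714), and the block left it at an adjusted p of 0.221.

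Aldoc (11676), the brain-type aldolase of the fructose-1,6-bisphosphate step, held 1075, 1625, 747 and 942 normalized counts in p110g-/- TAM and 962, 848, 767 and 672 in WT TAM. p110g-/- TAM 2 was the highest library and p110g-/- TAM 3 lay among the lowest, so the genotypes overlapped (log2 fold change 0.39, SE 0.23, limma adjusted p = 0.999).

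Egln3 (112407), which encodes an oxygen-sensing prolyl hydroxylase that is itself a HIF target, held 2550, 1227, 1939 and 2370 in p110g-/- TAM and 3506, 1707, 2847 and 2287 in WT TAM. Each of the p110g-/- libraries 1, 2 and 3 was lower than the WT library of the same number, and number 4 was slightly higher (log2 fold change −0.36, SE 0.28, limma adjusted p = 0.999).

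Adm (11535), the gene of the vasodilator peptide adrenomedullin, held 97, 129, 298 and 393 in p110g-/- TAM and 97, 160, 520 and 402 in WT TAM. In both genotypes libraries 3 and 4 were higher than libraries 1 and 2. The fibroblast marker sum given above is higher in those same libraries, as are the T cell and erythroid marker sums. The carcinoma markers Krt8 and Krt18 were higher there too, while Krt7, Epcam and Cdh1 were not. Krt8 held 46, 197, 1569 and 1194 in p110g-/- TAM and 76, 499, 1573 and 1648 in WT TAM. The part of these markers in the level of Adm was not tested. The log2 fold change was −0.29 with an SE of 0.64 (limma adjusted p = 0.999). With the replicate number as a block the SE was 0.16 (limma adjusted p = 0.408). Within same-numbered libraries, p110g-/- equalled WT for number 1 and was lower for numbers 2, 3 and 4. In fits with no block, which left 1 library without its same-numbered partner, the value was 0.05 without p110g-/- TAM 1 and 0.09 without WT TAM 3.

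By role, none of the 2 transporters, 12 glycolytic enzymes, 2 pyruvate genes and 2 genes of fructose-2,6-bisphosphate control passed in TAM. Slc2a1 (20525), the basal glucose transporter, averaged 11980 ± 578 normalized counts in p110g-/- TAM and 11840 ± 3641 in WT TAM (SD, n = 4 each). Ldha (16828), the lactate dehydrogenase A subunit, averaged 45560 ± 3661 in p110g-/- TAM and 44670 ± 3070 in WT TAM. Hif1a (15251), the oxygen-regulated subunit itself, averaged 12970 ± 866 in p110g-/- TAM and 11530 ± 3017 in WT TAM. The spread of WT TAM was the wider one for Slc2a1 and Hif1a, and WT TAM 1 held the highest value of both. None of the 3 genes of the HIF core, 3 mitochondrial proteins, 5 genes of growth and signalling control and 4 collagen, folding and chromatin enzymes passed either.

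WT TAM 1 held the highest value of all 8 TAM libraries for 26 of the 33 genes, beside 22.9% of all genes tested. It was above every other WT TAM library for 29 of the 33, beside 35.5% of all genes, and its median excess over the mean of the other WT libraries was 0.56 on the log2 scale, beside −0.03 over all genes. WT TAM 4 held the lowest value for 17 of the 33, beside 14.9% of all genes. Among the glycolytic enzymes, Aldoa (11674), the main aldolase of these cells, held 71104, 74503, 62794 and 65975 in p110g-/- TAM and 84200, 62125, 62446 and 59635 in WT TAM. The first WT library thus stood above all p110g-/- libraries, and the other WT libraries lay below every one of them. The summed neutrophil markers were also highest in library 1 of each genotype, with 2599, 1305, 1136 and 1437 normalized counts in p110g-/- TAM and 2307, 1181, 1125 and 1125 in WT TAM. Csf3r made up most of these sums, with 2180 in p110g-/- TAM 1 and 1932 in WT TAM 1. Csf3r, S100a8 and Cxcr2 were highest in library 1 of each genotype. S100a9 was highest in p110g-/- TAM 3 (104) and WT TAM 4 (84), and Retnlg stood at 4 or lower in every TAM library. The summed endothelial markers were 1050, 1054, 734 and 839 in p110g-/- TAM and 1027, 723, 760 and 719 in WT TAM. Within WT TAM, library 1 was the highest for Pecam1, Kdr and Vwf and the lowest for Cdh5, Tie1 and Emcn. The part of these markers in the values of library 1 was not tested.

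WT TAM 1 was also the highest TAM library for hypoxia targets, among them Egln1, Ndrg1, P4ha1, Ero1l and Kdm3a, and 2 others are given here. Bnip3 (12176), a mitophagy receptor gene, held 7199, 5104, 5762 and 6855 in p110g-/- TAM and 8061, 4598, 5611 and 4806 in WT TAM. Ankrd37 (654824), an ankyrin repeat protein gene induced by HIF, held 1962, 1303, 1042 and 1178 in p110g-/- TAM and 2662, 1196, 1300 and 1090 in WT TAM. Library 1 was the highest of each genotype for both genes. p110g-/- TAM 1 was above every other p110g-/- TAM library for 16 of the 33 genes, beside 31.0% of all genes, with a median excess of 0.15. Pfkm (18642), the muscle-type phosphofructokinase, went the other way in library 1, with 388, 490, 611 and 444 in p110g-/- TAM and 302, 518, 574 and 598 in WT TAM.

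**Figure D2:**
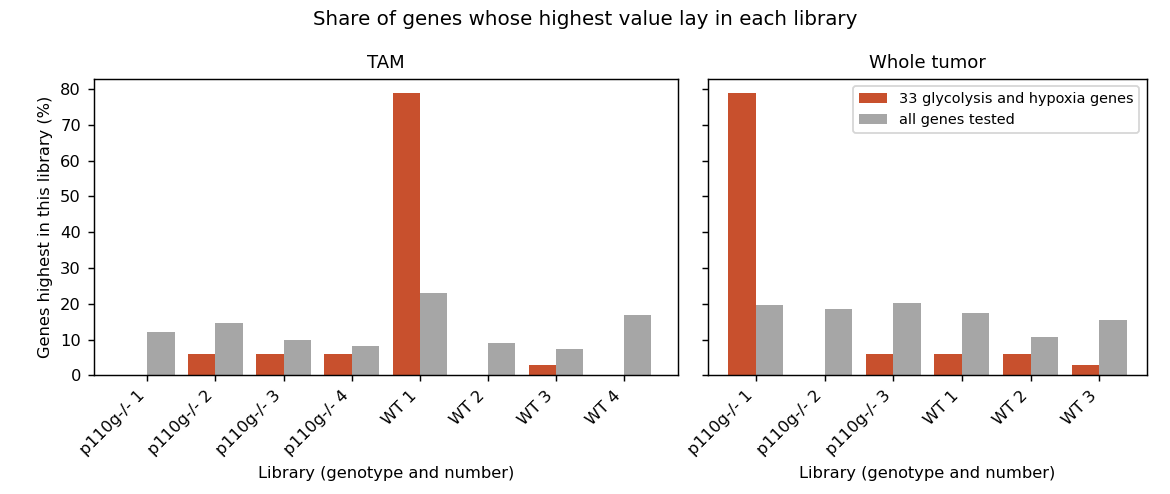
Percentage of genes whose highest value lay in each library, for the 33 glycolysis and hypoxia genes (orange) and for all genes tested (grey), in TAM at the left and whole tumors at the right, p110g-/- libraries before WT. WT TAM 1 and p110g-/- tumor 1 each hold the highest value for 78.8% of the 33 genes, beside 22.9% and 19.7% of all genes.

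The balance of the 33 genes between genotypes depended on which libraries were set against each other. Within pairs of the same number, 3, 25, 21 and 29 of the 33 genes were higher in p110g-/- TAM for numbers 1 to 4, beside 47.9%, 46.7%, 46.7% and 45.4% of all genes. Without WT TAM 1, 28 of the 33 had a positive log2 fold change with a median of 0.20, and without WT TAM 4, 14 did with a median of −0.01. Rescaled to equal column totals, 17 of the 33 were positive. None of the 33 passed when any 1 TAM library was left out or when only numbers 1 and 2 were compared. With only numbers 3 and 4, where 2 p110g-/- libraries were set against 2 WT libraries, 6 of the 33 passed. Hif1a, Mxi1, Pfkfb3, Pfkp and Slc16a3 were higher and Pfkfb4 lower in p110g-/-. In that fit 1428 genes passed among the 12924 with a row, so such calls were not particular to the 33.

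**Figure D3:**
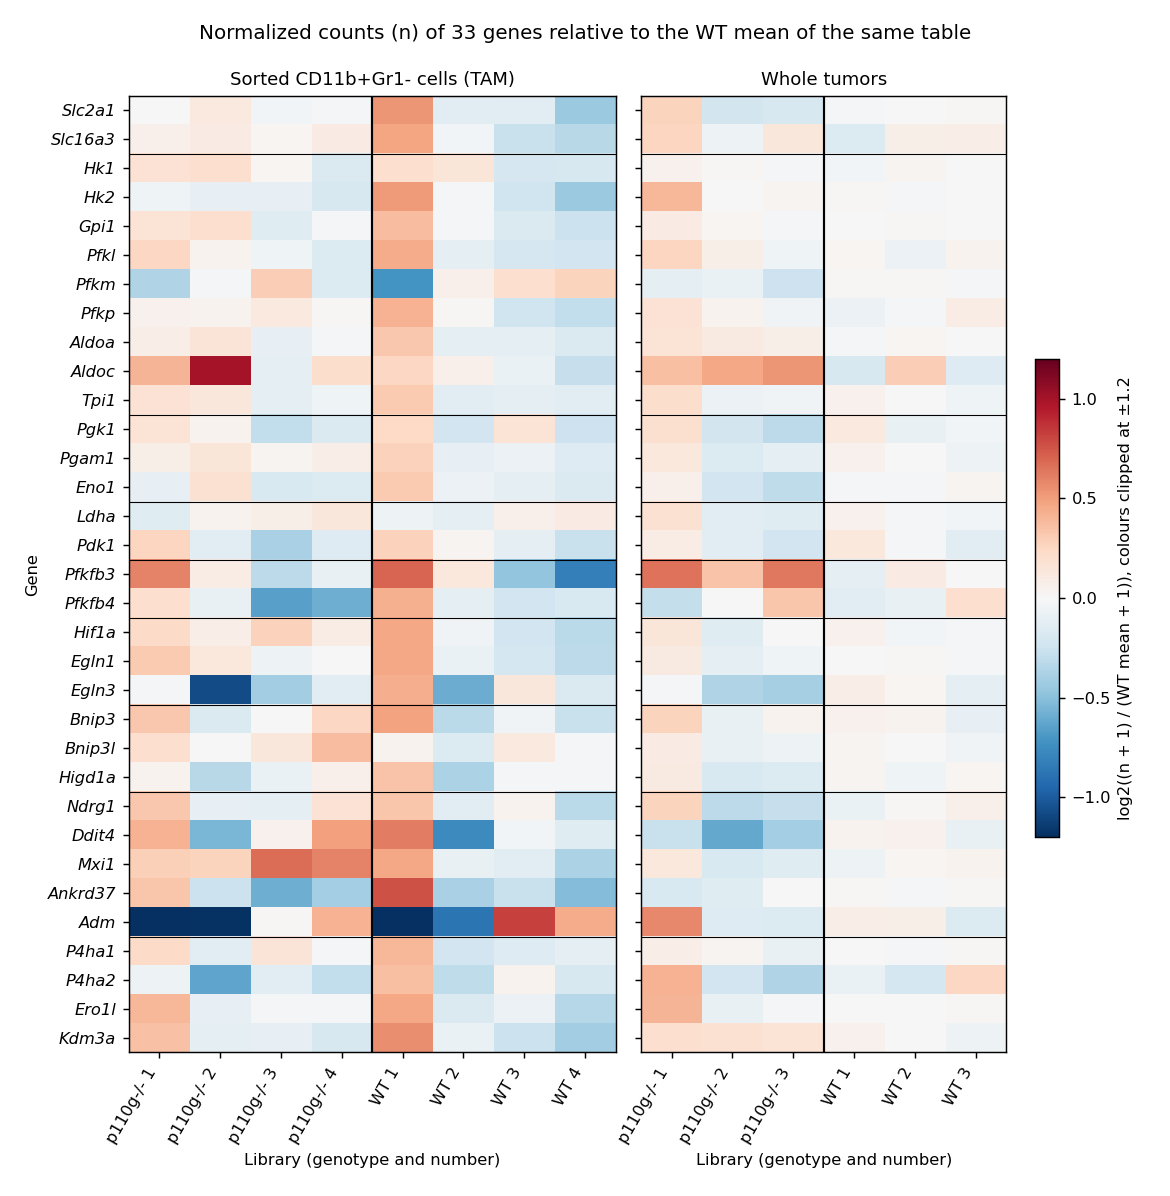
Normalized counts of the 33 genes in each library as log2 differences from the WT mean of the same table (red above, blue below), with p110g-/- libraries left of WT libraries and lines between gene roles. WT TAM 1 is red for most genes, with Pfkm and Adm blue, and p110g-/- tumor 1 is red for most genes, with Ddit4 and Pfkfb4 blue.

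In whole tumors, Pfkfb3 rose and Ddit4 fell in p110g-/- against WT, and the other 31 genes did not pass the test. limma called 553 of 12717 genes there (4.35%), 286 higher (2.25%) and 267 lower (2.10%), so 2 of 33 is near the background. With the replicate number as a block, 5.97% of all genes were called and again Pfkfb3 and Ddit4 alone of the 33. Same-numbered whole tumors were not shown to be pairs, so this block lends the 2 calls no support. The median log2 fold change of the 33 genes was 0.00, beside 0.01 over all genes, and 17 of the 33 were positive against 51.6% of all genes. The genotypes were fully separated for 6 of the 33, beside 31.0% of all genes: Aldoc, Kdm3a, Pfkfb3 and Aldoa were higher and Ddit4 and Pfkm lower in p110g-/-.

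Pfkfb3 (170768) encodes the bifunctional enzyme with high kinase activity that makes fructose-2,6-bisphosphate, the activator of phosphofructokinase 1. It held 3080, 2479 and 3041 normalized counts in p110g-/- tumors and 1814, 2103 and 1961 in WT tumors. All 3 p110g-/- tumors were above all 3 WT tumors (log2 fold change 0.54, SE 0.09, 95% confidence interval 0.33 to 0.76, limma adjusted p = 0.0286). The call was lost without p110g-/- tumor 3 (limma adjusted p = 0.0965) and without WT tumor 1, 2 or 3 (0.0925, 0.0866 and 0.0778), where the log2 fold change stayed between 0.49 and 0.60.

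Ddit4 (74747) encodes REDD1, a hypoxia- and stress-induced inhibitor of mTORC1 signalling. It held 2796, 2198 and 2529 in p110g-/- tumors and 3458, 3478 and 3160 in WT tumors. All 3 p110g-/- tumors were below all 3 WT tumors (log2 fold change −0.43, SE 0.09, 95% confidence interval −0.63 to −0.22, limma adjusted p = 0.0407). The call was lost without p110g-/- tumor 2 or 3 (limma adjusted p = 0.101 and 0.116) and without WT tumor 1, 2 or 3 (0.129, 0.138 and 0.0790), where the log2 fold change stayed between −0.47 and −0.34.

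Aldoc held 189, 204 and 213 in p110g-/- tumors and 129, 181 and 132 in WT tumors, with no overlap (log2 fold change 0.47, SE 0.15, limma adjusted p = 0.107). Egln3 held 5836, 4587 and 4468 in p110g-/- tumors and 6231, 5977 and 5479 in WT tumors. p110g-/- tumor 1 reached into the WT range, and the other 2 lay below it (log2 fold change −0.26, SE 0.10, limma adjusted p = 0.170). Kdm3a (104263), a HIF-induced histone demethylase gene, averaged 3018 ± 39.0 in p110g-/- tumors and 2660 ± 107 in WT tumors (SD, n = 3 each; limma adjusted p = 0.0685), and it passed after rescaling to equal column totals (adjusted p = 0.0488).

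**Figure D4:**
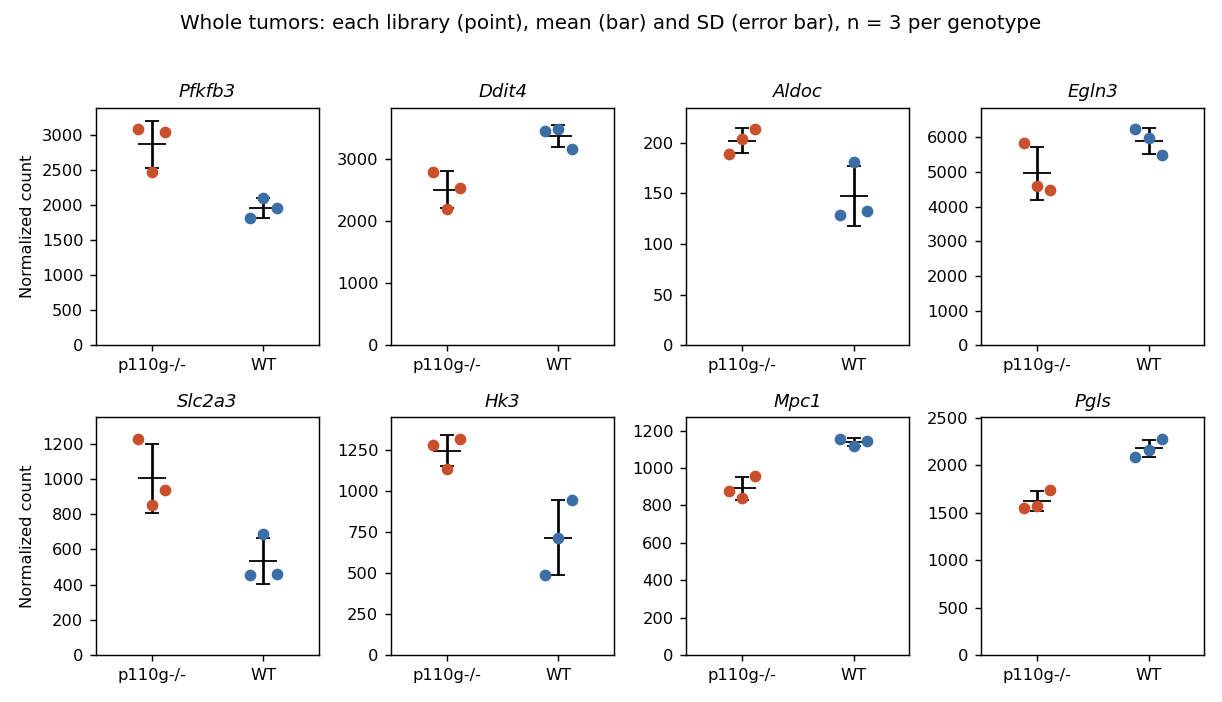
Normalized counts of 8 genes in whole tumors, p110g-/- left of WT, each point 1 library with the mean and SD of 3 libraries, on axes that start at 0. Pfkfb3, Aldoc, Slc2a3 and Hk3 lie higher in every p110g-/- tumor than in any WT tumor, Ddit4, Mpc1 and Pgls lie lower, and for Egln3 p110g-/- tumor 1 reaches into the WT range.

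By role, the 31 genes without a call in whole tumors had log2 fold changes between −0.26 and 0.47. Of the 9 enzymes of the upper steps of glycolysis 8 were positive (median 0.06). All 3 measured enzymes of the lower steps and both pyruvate genes were negative (medians −0.11 and −0.06). None of these 14 genes passed, and the difference between the steps was not tested. Over all genes 51.6% were positive, with a median absolute log2 fold change of 0.12. Without p110g-/- tumor 1, 6 of the 33 genes changed sign and 11 were positive. Hif1a averaged 7940 ± 783 normalized counts in p110g-/- tumors and 7917 ± 239 in WT tumors (SD, n = 3 each; log2 fold change 0.00, 95% confidence interval −0.17 to 0.17).

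p110g-/- tumor 1 held the highest value of the 6 tumors for 26 of the 33 genes, beside 19.7% of all genes. Its median excess over the mean of the other p110g-/- tumors was 0.24 on the log2 scale, beside −0.01 over all genes. Slc2a1 held 13265, 9502 and 9657 in p110g-/- tumors and 10964, 11066 and 11143 in WT tumors, so the first p110g-/- tumor was above every WT tumor and the other 2 were below. Ndrg1 (17988), a hypoxia-induced growth regulator gene, had the same pattern, with 8106, 5433 and 5560 in p110g-/- tumors and 6391, 6789 and 7038 in WT tumors. Eno1 (13806), the enolase of the lower steps, held 67405, 55144 and 52452 in p110g-/- tumors and 64150, 63458 and 66263 in WT tumors. Pgk1 (18655), which makes the first ATP of the pathway, held 25293, 18904 and 17803 in p110g-/- tumors and 23941, 20711 and 21579 in WT tumors. For all 4 genes tumor 1 was the highest p110g-/- library and the other 2 lay below every WT tumor. Without p110g-/- tumor 1, 7 of the 33 genes passed, Pfkfb3 higher and Ddit4, Egln3, Eno1, Ndrg1, Pgk1 and Slc2a1 lower in p110g-/-. In that fit 2001 genes passed among the 12924 with a row, so such calls were not particular to the 33.

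Markers of other cell types also differed between the tumors. The 5 measured carcinoma markers summed to 10109, 9311 and 10659 in p110g-/- tumors and 13999, 14796 and 15097 in WT tumors. Krt8 and Krt18 made up most of these sums and fell (log2 fold change −0.63 and −0.45, limma adjusted p = 0.00818 and 0.0164). Krt7 and Cdh1 were not called (log2 fold change 0.23 and −0.76, limma adjusted p = 0.603 and 0.398), and Epcam was too low to test. Cdh1 averaged 159 in p110g-/- tumors and 311 in WT tumors, against 2494 in p110g-/- TAM and 1516 in WT TAM. Of 8 T cell markers, 5 rose in p110g-/- tumors, and their sums were 535 to 719 in p110g-/- and 128 to 319 in WT. The 5 measured neutrophil markers summed to 12496, 6922 and 10245 in p110g-/- tumors and 7040, 10403 and 8253 in WT tumors, with Ly6g, Mpo and Elane not analysed here, and none was called. The 8 endothelial markers summed to 1681 to 2033 in p110g-/- tumors and 997 to 1610 in WT tumors, all with positive log2 fold changes and none called. Fibroblast markers summed to 194737 to 212617 in p110g-/- tumors and 191903 to 217853 in WT tumors, and the 2 measured erythroid markers to 952 to 2939 in p110g-/- tumors and 261 to 1604 in WT tumors, with no call. The part of these cells in the values of Pfkfb3, Ddit4 and the genes named next was not tested.

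Over 5 wider lists of the pathway, 2 of 85 tested genes rose and 3 fell in p110g-/- whole tumors, near the 4.35% of all genes that were called there. Of 16 further glycolytic genes and isoforms tested in whole tumors, 1 rose and none fell: Slc2a3 (20527), the high-affinity glucose transporter, held 1227, 854 and 935 in p110g-/- tumors and 454, 687 and 461 in WT tumors (log2 fold change 0.92, SE 0.19, limma adjusted p = 0.0396). All 3 p110g-/- tumors were above all 3 WT tumors. In TAM it held 166, 142, 149 and 141 in p110g-/- and 82, 191, 164 and 133 in WT, where the genotypes overlapped.

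Of 12 genes of pyruvate entry into mitochondria, 1 fell in whole tumors and none rose. Mpc1 (55951), a subunit of the mitochondrial pyruvate carrier, held 877, 838 and 958 in p110g-/- tumors and 1155, 1117 and 1147 in WT tumors (log2 fold change −0.36, SE 0.06, limma adjusted p = 0.0295). Of 8 pentose phosphate pathway genes, 1 fell: Pgls (66171), 6-phosphogluconolactonase, held 1556, 1575 and 1742 in p110g-/- tumors and 2093, 2166 and 2279 in WT tumors (log2 fold change −0.42, SE 0.06, limma adjusted p = 0.020). For both genes every p110g-/- tumor lay below every WT tumor.

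Of 11 other HIF pathway genes, 1 rose: Ep300 (328572), a coactivator that HIF recruits, held 2195, 2247 and 2278 in p110g-/- tumors and 1934, 1829 and 1806 in WT tumors (log2 fold change 0.27, SE 0.05, limma adjusted p = 0.0293). Of 38 further hypoxia-induced genes, 1 fell: Bhlhe40 (20893), a transcriptional repressor gene, held 3469, 3500 and 3667 in p110g-/- tumors and 4174, 4580 and 4936 in WT tumors (log2 fold change −0.36, SE 0.07, limma adjusted p = 0.0319). The genotypes did not overlap for either gene. Each of these 5 calls was lost when single tumors were left out: Slc2a3, Mpc1 and Ep300 without any of p110g-/- tumors 2 and 3 and WT tumors 1 to 3, Pgls without p110g-/- tumor 2 or any WT tumor, and Bhlhe40 without p110g-/- tumor 2 or 3 or WT tumor 2 or 3 (adjusted p from 0.0512 to 0.125). Over all 6 such fits the log2 fold change ranged from 0.77 to 1.12 for Slc2a3, from −0.41 to −0.31 for Mpc1, from 0.25 to 0.30 for Ep300, from −0.48 to −0.39 for Pgls and from −0.42 to −0.30 for Bhlhe40.

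In TAM none of the 82 genes tested in the same 5 lists passed without the block. The largest differences were 0.55 for Ldhb and −0.43 for Slc2a6 among the glycolytic genes, 0.44 for Pdk2 and −0.20 for Mpc1 among the pyruvate genes, and −0.24 for Pgls and 0.15 for H6pd in the pentose phosphate pathway, all on the log2 scale. Among other HIF pathway genes they were 0.27 for Cited2 and −0.24 for Hif1an, and among further hypoxia-induced genes 1.56 for Ndufa4l2 and 1.12 for Inhba. Ndufa4l2 (407790), a mitochondrial protein gene induced by HIF, held 73, 57, 34 and 72 in p110g-/- TAM and 28, 10, 14 and 29 in WT TAM. All 4 p110g-/- libraries were above all 4 WT libraries (limma adjusted p = 0.438, and 0.0439 with the replicate number as a block).

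The genotype effect in TAM was set against that in whole tumor as a difference of within-table differences over all 14 libraries. limma called 18 of 12396 genes (0.145%), 5 with a higher (0.0403%) and 13 with a lower (0.105%) effect in TAM, and none of the 33, of which 1 had an unadjusted p below 0.05. With the block it called 327 genes (2.64%) and again none of the 33. The largest values were 0.62 for Ddit4 (SE 0.41, adjusted p = 0.993) and 0.55 for Mxi1 (SE 0.24, adjusted p = 0.720). The fall of Ddit4 in whole tumors was therefore not shown to differ from its value in TAM, where its log2 fold change was 0.19 with a 95% confidence interval of −0.55 to 0.92. Under equal column totals the median of all genes in this comparison was −0.12.

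The tables were probably scaled separately. Levels in TAM and whole tumor are therefore given as counts per 1000000 of each library's normalized counts (CPM), side by side and with no test. The 33 genes together made up 1.27%, 1.27%, 1.12% and 1.04% of normalized counts in p110g-/- TAM and 1.46%, 1.13%, 1.14% and 1.05% in WT TAM. In whole tumors they made up 1.39%, 1.22% and 1.18% in p110g-/- and 1.26%, 1.24% and 1.22% in WT. The shares of TAM and whole tumors overlapped, and WT TAM 1 and p110g-/- tumor 1 were the highest of their tables. Per kilobase of exon (GENCODE vM21), the highest level in TAM was that of Aldoa at 679 CPM per kilobase, followed by Ldha at 396, Eno1 at 392 and Pgam1 at 387. In whole tumors Ldha led at 559, followed by Eno1 at 424, Pgam1 at 408 and Aldoa at 395. Ldha, Eno1 and Pgam1 in TAM, and Eno1, Pgam1 and Aldoa in whole tumors, lay close to each other, and the order among them was not tested.

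Levels in CPM lay above every whole tumor in all TAM libraries for 5 of the 33 genes and below every whole tumor for 12, while 16 overlapped; over all genes 60.4% did not overlap, 18.4% above and 42.0% below. The 5 higher in TAM were Slc16a3, Aldoa, Aldoc, Pfkfb4 and Ankrd37, with ratios of means of 3.07, 1.72, 4.27, 5.20 and 2.28. Slc16a3 (80879), the lactate exporter MCT4, lay at 312 to 539 CPM in TAM and at 109 to 147 in whole tumors. Pfkfb4 (270198), another fructose-2,6-bisphosphate enzyme gene, strongly induced by hypoxia, lay at 76.4 to 171 CPM in TAM and at 18.2 to 28.6 in whole tumors. The 12 lower in TAM included Adm, Pfkm, Ddit4, Egln3, P4ha2 and Ndrg1, with ratios of 0.0748, 0.277, 0.323, 0.334, 0.374 and 0.428. Adm showed the lowest ratio, at 2.82 to 15.6 CPM in TAM against 84.8 to 143 in whole tumors.

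Ratios of paired genes within a library do not depend on the scaling of the tables and were tested, TAM minus whole tumor, by permuting tissue labels within genotype in every possible way (exact permutation test, two-sided). Of 8 ratios 7 passed, each at an adjusted p of 0.000933 from an unadjusted 0.000816, the smallest that these permutations can give, and their libraries did not overlap. Ratios of other gene pairs were not examined, and 60.4% of all single genes did not overlap in CPM. The count is therefore not shown to be particular to these pairs. The log2 ratio of Pfkfb4 to Pfkfb3 was −0.06, 0.14, −0.02 and −0.17 in p110g-/- TAM and 0.05, 0.09, 0.57 and 0.96 in WT TAM. In whole tumors it was −2.64, −2.05 and −2.0 in p110g-/- and −1.73, −1.89 and −1.50 in WT, so the genes held similar counts in most TAM libraries and Pfkfb3 held the higher count in every whole tumor (difference 2.16, or 4.48-fold).

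The phosphofructokinase 1 isoforms also differed. The platelet isoform Pfkp against the liver isoform Pfkl had a log2 ratio of −0.45 to −0.07 in TAM and −1.03 to −0.89 in whole tumors (difference 0.72). The muscle isoform Pfkm against Pfkl had −5.05 to −3.39 in TAM and −2.91 to −2.45 in whole tumors (difference −1.29). In libraries 1 to 4 this ratio was −4.5, −3.96, −3.54 and −3.89 in p110g-/- TAM and −5.05, −3.72, −3.48 and −3.39 in WT TAM. The fibroblast marker sums ranked the libraries of each genotype in the same order, and their part in the ratio was not tested. Aldoc against Aldoa had −6.47 to −5.52 in TAM and −7.82 to −7.19 in whole tumors (difference 1.29), and Aldoa held far more counts than Aldoc in every library.

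The 3 pairs of hypoxia-regulated genes showed the same kind of separation. Bnip3 against Bnip3l, both mitophagy receptors, had a log2 ratio of 0.32 to 1.01 in TAM and −0.30 to −0.07 in whole tumors (difference 0.71). Egln3 against Egln1, prolyl hydroxylases that differ in how strongly hypoxia induces them, had −1.47 to 0.08 in TAM and 0.48 to 0.91 in whole tumors (difference −1.24). P4ha2 against P4ha1, collagen prolyl hydroxylase subunits, had −5.08 to −4.37 in TAM and −4.02 to −3.41 in whole tumors (difference −0.96).

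The hexokinases were the exception. Hk2, the inducible isoform, against Hk1 had a log2 ratio of −0.49 to 0.13 in TAM and −0.45 to −0.06 in whole tumors, and the ranges overlapped (difference 0.05, exact permutation p = 0.626, adjusted p = 0.626). Between genotypes in TAM no ratio passed an exact permutation test over 70 labelings, whose smallest p is 0.0286. P4ha2 against P4ha1 came closest, at −4.91 ± 0.11 in p110g-/- TAM and −4.57 ± 0.13 in WT TAM (SD, n = 4 each; difference −0.34, exact p = 0.0286, adjusted p = 0.229), with every p110g-/- library below every WT library. For whole tumors, 3 libraries against 3 cannot give a p below 0.10, and no ratio was tested between genotypes.

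**Figure D5:**
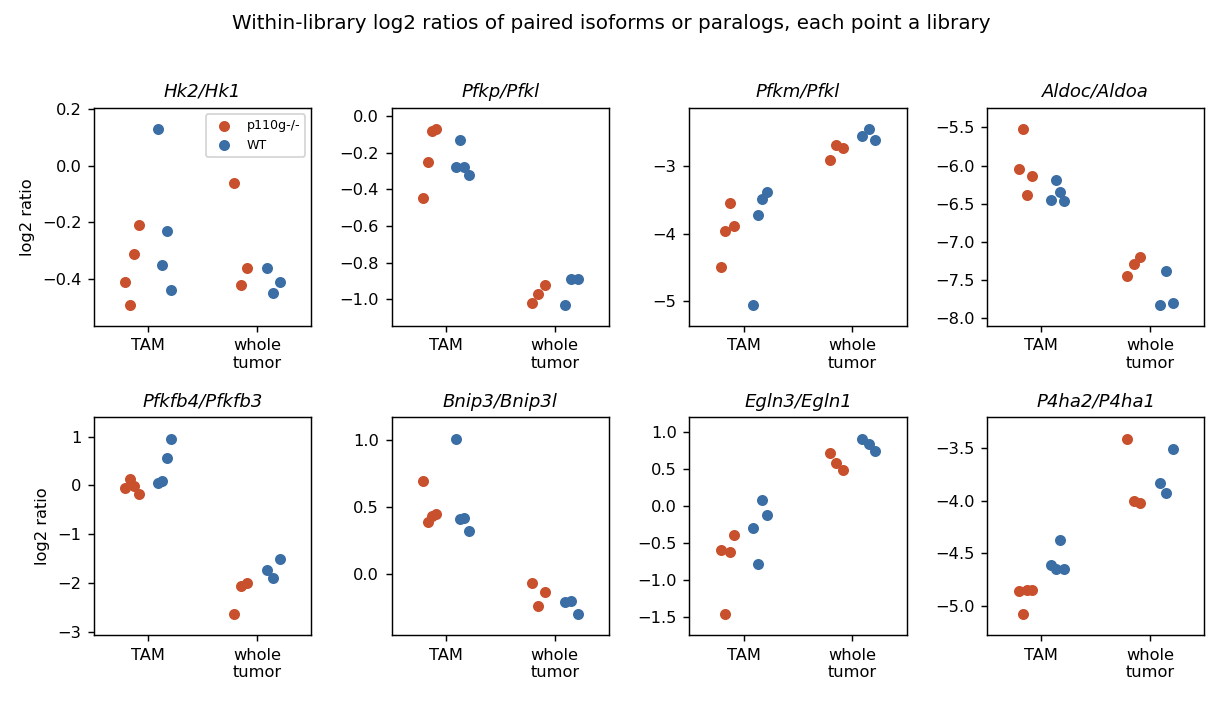
Log2 ratios of 8 gene pairs within each library, TAM left of whole tumor, orange for p110g-/- and blue for WT. For 7 pairs the TAM libraries lie apart from the whole tumor libraries, and for Hk2/Hk1 they overlap.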

How the data were processed

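The authors deposited 1 table for the TAM and 1 for the whole tumors. Bowtie2, DESeq and the mouse build mm9 are named per the submitters' processing notes, with no versions, and the sources used here state neither the gene counter nor the normalization formula. The deposited values are a score: normalized counts, whole numbers scaled by 1 factor per library and rounded, as read from the values, and the absolute depth is therefore unknown. The other column of each table, headed pp, was not used. How reads shared by near-identical copies were counted is not given, so the values of Ldha, Eno1, Pgk1, Aldoa, Tpi1 and Pgam1, which have pseudogenes, are uncertain.

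Genotypes were compared within each table with limma 3.58.1 (R 4.3.3, trend on mean expression) on log2(normalized count + 1), a scale that understates changes of low genes. Genes were kept when at least 4 TAM or 3 whole tumor libraries reached 10. P-values are two-sided and adjusted over all genes tested by Benjamini-Hochberg. The procedure was tested on simulated data. Isoform ratios used exact permutation tests (Python 3.11.15, numpy 2.4.6), adjusted over the 8 ratios. The genes, lists and tests were chosen with earlier results of these data known. Every member was accounted for; named by rule were genes called, the 4 members with the largest changes per genotype comparison, and the called or 2 largest of each pathway list. Ankrd37, Bnip3, Slc2a1, Ldha, Hif1a, Kdm3a, Ndrg1, Eno1, Pgk1, Hk3, Vegfa and Arg1 were named or singled out after their values were seen.

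The labels number the libraries without saying what a number marks. Deviations from the group means correlated between same-numbered TAM libraries at 0.847, 0.472, 0.808 and 0.702, so the numbers were taken to pair them, although p110g-/- TAM 4 correlated best with WT TAM 3. Whole tumors gave 0.095, 0.076 and 0.178 and share only a number. Alternatives were a pseudocount of 8, no filter, equal upper quartiles, equal column totals, the block, numbers 1 and 2 or 3 and 4 alone, and each library left out. Promoter windows are from RefSeq (GRCm38.p6) and were not used with the authors' mm9 coordinates.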

Additional observations from a re-analysis of the deposited data

Results flagged for a closer look

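Groups of 4 TAM libraries were examined for the 33 genes and the 8 isoform ratios (82 groups) and for 16 wider pathway genes (32 groups). In 12 and 3 of them, 15 of 114 in all, there was an end value whose gap to the nearest library, over the group's range, exceeded Dixon's 95% critical value. Chance flags about 1 group in 20, a rate set here beside the 82 groups only, and genes that vary together in 1 library are not independent. Of the 12, 7 were the high value of WT TAM 1. Normalized counts in WT TAM 1, with the range of the other WT TAM libraries after each, were 10067 for Pfkl (6294 to 6827), 84200 for Aldoa (59635 to 62446), 33036 for Tpi1 (24212 to 24751), 5859 for Pfkfb4 (3711 to 4045), 2662 for Ankrd37 (1090 to 1300) and 9355 for P4ha1 (6054 to 6567). The 3 wider pathway genes, which are not among the 33, were also high in that library. They were Arg1, arginase 1, at 160107 (27370 to 36123), Vegfa, the vascular endothelial growth factor A gene, at 14636 (2600 to 3595), and Inhba, an activin subunit gene, at 163 (14 to 31). Arg1 and Vegfa were looked at after their values had been seen, so the 32 wider groups are not set against the chance rate. The log2 ratio of Bnip3 to Bnip3l was 1.01 in WT TAM 1 and 0.32 to 0.42 in the others.

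Among p110g-/- TAM, Slc2a1 stood at 12843 in library 2 (others 11599 to 11778), Ero1l, an endoplasmic reticulum oxidase gene, at 7458 in library 1 (5291 to 5573) and Kdm3a at 3614 in library 1 (2467 to 2648). The log2 ratio of P4ha2 to P4ha1 was −5.08 in p110g-/- TAM 2 (others −4.86 to −4.85) and −4.37 in WT TAM 3 (others −4.65 to −4.61). WT TAM 1 had the lowest mitochondrial share of the WT TAM, at 2.51%, and the lowest fibroblast marker sum, at 2569. Its 10 macrophage markers summed to 389993, within the range of the other WT TAM, although single markers differed: Fcgr1 stood at 16633 (others 8676 to 9998), Itgam at 96331 (46729 to 75816) and Adgre1 at 7876 (10649 to 15414). Its neutrophil markers summed to 2307 (1125 to 1181), most of it Csf3r at 1932 (918 to 1113), while S100a9 stood at 74 (14 to 84). Its endothelial markers summed to 1027 (719 to 760). Pecam1, Kdr and Vwf were highest there, at 482 (176 to 217), 248 (164 to 233) and 192 (146 to 190). Cdh5, Tie1 and Emcn were lowest there, at 93 (110 to 138), 7 (10 to 33) and 1 (2 to 19). Cldn5 tied for lowest, and Tek lay within the range of the others. The part of these in its values was not tested.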

How the results depend on the processing

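No glycolysis or hypoxia gene was called in TAM under the alternatives run, except with only numbers 3 and 4, which called 6. The count over all genes in TAM was 22 with equal upper quartiles, 312 with the replicate block, 0 with only numbers 1 and 2 (limma, 209 at an unadjusted p below 0.05) and 1428 with only numbers 3 and 4, and it ran from 3 to 40 with single libraries left out. In whole tumors, leaving out single libraries gave 0 to 7 of the 33 genes and 29 to 2001 of all genes. With the replicate block, which groups whole tumors by a number that was not shown to pair them, 759 genes passed there. Pfkfb3 and Ddit4 kept their calls (limma adjusted p = 0.0423 and 0.0416) and Slc2a3 lost its call (0.0543). Hk3, higher in p110g-/- (0.0474), and Arg1, lower (0.0347), gained one. The difference of the genotype effects had 327 calls with the block and 0 to 101 without single libraries, with none of the 33 genes under any alternative. The log2 fold change of Adm in TAM ran from −0.72 to 0.09 without single libraries, changing sign without p110g-/- TAM 1 (0.05) and WT TAM 3 (0.09). Those fits had no block, and each left 1 TAM library without its same-numbered partner. The log2 fold change of Inhba in TAM was −0.09 with only numbers 1 and 2. The causes were not tested. The 7 isoform ratios called between TAM and whole tumor, and the 0 between genotypes, held at a pseudocount of 8 and with each library left out. Absolute depth is unknown, so the precision of low genes such as Adm in TAM cannot be stated. The low whole numbers that never occurred numbered 0, 13, 30 and 49 in p110g-/- TAM 1 to 4 and 0, 7, 19 and 17 in WT TAM 1 to 4. They numbered 0 in each whole tumor. Whole numbers are skipped where counts are scaled up by 1 factor. If that was done, p110g-/- TAM 4 and then p110g-/- TAM 3 were scaled up most.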
